A study of Mus musculus with 75 samples.

Results

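Small leucine-rich proteoglycans are secreted matrix proteins built around a run of leucine-rich repeats. The genes described here were *Dcn* (decorin), *Bgn* (biglycan), *Aspn* (asporin), *Lum* (lumican), *Fmod* (fibromodulin), *Prelp* (prolargin), *Omd* (osteomodulin), *Ogn* (osteoglycin) and *Podn* (podocan). They were taken by gene symbol from the table of counts per gene, and all 9 were found among its 55536 genes and passed the filter on low counts, which kept 16221 genes. Lung RNA was sequenced from 75 male C57BL/6JRj mice, 1 library per mouse, to follow lung injury and fibrosis after bleomycin (BLEO). The 10 CTRL mice are called saline in the sample titles, while the protocol text calls the control animals untreated. The BLEO mice were 12 to 14 weeks old and were given bleomycin once through the trachea. They were killed on day 7 (n = 10), 14, 21, 28 or 35 (n = 12 each) or 42 (n = 7). Mice entered a BLEO group only if they had lost 5 to 17% of body weight on day 6, so animals with a milder or a heavier loss are not represented, and the age of the CTRL mice is not given separately. Each library was made from 1 whole lobe of the right lung, the inferior one, so fewer cells of a type and less RNA per cell cannot be told apart.

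In tissue, the family sits on or near collagen fibrils. Decorin, biglycan and asporin form 1 branch of the family, and the first of these carries a single glycosaminoglycan chain and limits how thick collagen fibrils grow. Lumican, fibromodulin, prolargin and osteomodulin form a second branch that binds fibrillar collagen, often with keratan sulfate chains or sulfated tyrosines. Osteoglycin, also called mimecan, and podocan belong to more distant branches. Decorin, biglycan and fibromodulin bind TGF-beta, and biglycan set free from the matrix can also engage Toll-like receptors. In the lung these genes are mainly read in fibroblasts and smooth muscle cells, and decorin is a usual marker of fibroblasts.

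The genes sit in a few places of the genome (GRCm38, Ensembl release 96). *Prelp* (chr1:133910304-133921414, minus strand) and *Fmod* (chr1:134037254-134048277, plus strand) point away from each other over a gap of 115839 bp. *Dcn* (chr10:97479609-97518143) and *Lum* (chr10:97565128-97572703) lie on the plus strand, 46984 bp apart. *Aspn* (chr13:49544443-49567565), *Omd* (chr13:49582462-49592822) and *Ogn* (chr13:49608046-49624501) follow each other on the plus strand with gaps of 14896 and 15223 bp. No other protein-coding gene lies wholly between the neighbours of any of these clusters. *Bgn* (chrX:73483602-73495933, plus strand) and *Podn* (chr4:108014791-108096445, minus strand) stand alone. The trio on chromosome 13 lies within *Cenpp*, a gene of the opposite strand with a median of 12 counts per library. Only *Aspn* shares exon sequence with it, 7 bp, while *Prelp* shares 350 bp with the antisense RNA *Gm15851*, whose median count was 0.

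Windows of 300 bases around the start of transcription (250 before and 50 from the start on) were taken from RefSeq for GRCm38.p6, and 7 of the 9 genes matched, *Podn* with 2 windows. The windows of *Bgn* and *Fmod*, which rose, and of the 3 genes that follow each other on chromosome 13, *Aspn*, *Omd* and *Ogn*, of which the latter pair fell on all 6 days, are shown. Those of *Prelp* and *Podn* are not printed, and *Dcn* and *Lum* had none. No tie between a window and the course of its gene was tested. Capitals mark matches, on either strand, to the TATA box (TATAAA), the AP-1 motif (TGANTCA), the SMAD box with its flanks (CAGACA), the TEAD motif (CATTCC) or the GC box (GGGCGG).
*Bgn*, chrX:73483351-73483650, plus strand: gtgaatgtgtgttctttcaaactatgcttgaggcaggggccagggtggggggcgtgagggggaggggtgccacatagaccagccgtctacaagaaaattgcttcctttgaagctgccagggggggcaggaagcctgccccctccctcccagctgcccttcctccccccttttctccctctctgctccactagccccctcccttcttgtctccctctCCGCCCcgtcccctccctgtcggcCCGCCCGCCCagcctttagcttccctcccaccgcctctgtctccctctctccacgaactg
*Fmod*, chr1:134037004-134037303, plus strand: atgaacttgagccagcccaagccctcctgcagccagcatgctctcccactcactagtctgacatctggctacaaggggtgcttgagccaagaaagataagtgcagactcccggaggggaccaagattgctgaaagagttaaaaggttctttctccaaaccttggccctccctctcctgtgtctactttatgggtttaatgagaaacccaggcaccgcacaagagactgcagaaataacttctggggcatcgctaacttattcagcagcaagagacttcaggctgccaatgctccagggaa
*Aspn*, chr13:49544193-49544492, plus strand: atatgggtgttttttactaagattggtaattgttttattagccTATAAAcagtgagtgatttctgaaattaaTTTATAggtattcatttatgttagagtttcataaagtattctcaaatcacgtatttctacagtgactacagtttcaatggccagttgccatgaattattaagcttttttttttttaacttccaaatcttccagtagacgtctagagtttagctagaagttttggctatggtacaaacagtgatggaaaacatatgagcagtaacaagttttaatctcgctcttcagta
*Omd*, chr13:49582212-49582511, plus strand: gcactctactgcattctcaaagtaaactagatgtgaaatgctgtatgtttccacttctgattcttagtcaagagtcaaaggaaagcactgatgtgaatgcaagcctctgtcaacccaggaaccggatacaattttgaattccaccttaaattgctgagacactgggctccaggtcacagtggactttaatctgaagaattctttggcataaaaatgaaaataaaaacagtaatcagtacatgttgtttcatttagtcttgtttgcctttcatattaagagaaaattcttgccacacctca
*Ogn*, chr13:49607765-49608064, plus strand: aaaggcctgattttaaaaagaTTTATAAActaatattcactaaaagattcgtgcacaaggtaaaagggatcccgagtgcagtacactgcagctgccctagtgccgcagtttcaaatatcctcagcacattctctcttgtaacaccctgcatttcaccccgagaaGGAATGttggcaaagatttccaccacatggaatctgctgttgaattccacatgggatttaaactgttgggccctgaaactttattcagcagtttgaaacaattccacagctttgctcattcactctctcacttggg

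The *Bgn* window held 3 GC boxes on the minus strand, 2 of them overlapping, just before the start, and its GC content of 63.7% compared with a median of 52.7% over all windows. GGGCGG occurred in 35.7% of the 32851 windows in the table. The *Aspn* and *Ogn* windows each held TATAAA, at least 178 bases before the start and on both strands, and in *Ogn* these matches overlapped. TATAAA was found in 13.6% of all windows. *Ogn* also held CATTCC on the minus strand, which 14.7% of windows hold. The windows of *Fmod* and *Omd* held none of these letters, and TGANTCA, present in 7.81% of all windows, was in none of the 8 windows of the family. CAGACA was in the windows of *Prelp* and *Podn* and in 21% of all windows.

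Libraries held 9240291 to 14665247 counts, and this depth gave 8770 to 38518 counts of *Bgn* and 57 to 1099 of *Lum* per mouse. Lung epithelial markers summed to between 8470 and 50400 CPM (counts scaled by TMM factors to a common library size) and no marker of that list had a median of 0 counts over all libraries, so the libraries carried the labelled tissue. A single library stood apart in skeletal muscle markers. Mouse 10 of day 28 held 1590 CPM of 6 skeletal muscle markers, where no other library exceeded 16.4, and 2000 CPM of 5 cardiac markers, where no other exceeded 626. The next highest cardiac sums were also of day 28: 626 in mouse 11, 458 in mouse 8 and 326 in mouse 4. No library of another group exceeded 304. All 5 cardiac markers rose on day 28, beside 24.1% of all genes tested. Mouse 10 also held the highest *Dcn* and *Omd* values of its day. Results of day 28 are given with and without mouse 10 alone where they differ. Cartilage, which uses much of this family, left little trace: its 8 markers summed to at most 11.2 CPM in any library, and *Acan*, *Matn1*, *Cnmd* and *Col9a1* had a median of 0 counts over all libraries. The 3 cartilage markers with enough counts for a test, *Comp*, *Matn3* and *Hapln1*, all rose on days 14, 21 and 28, when *Fmod* and *Lum* also rose. On these days 32.4%, 28.3% and 24.1% of all genes tested rose. On days 35 and 42 only *Comp* and *Hapln1* rose, beside 16.9% and 13.7% of all genes tested. *Fmod* rose on both of these days and *Lum* on day 35 only. The median log2FC of the 3 markers was 1.84 on day 14, and their part in the rises of *Fmod* and *Lum* was not tested.

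Each BLEO day was compared to CTRL with edgeR's quasi-likelihood F test, and a gene was said to rise or fall when its adjusted p was under 0.05 (Benjamini-Hochberg over all genes tested). All 6 comparisons share the same CTRL mice. On day 7, 2 of the 9 genes rose (*Bgn*, *Podn*) and 4 fell (*Ogn*, *Prelp*, *Aspn*, *Omd*), where 24.8% of all genes tested rose and 21.0% fell, 45.8% in all. Day 14 brought 4 rises (*Bgn*, *Lum*, *Fmod*, *Podn*) and 3 falls (*Ogn*, *Prelp*, *Omd*), beside 32.4% and 29.9% of all genes, 62.4% in all. The same 4 rose on day 21 while *Ogn* and *Omd* fell, beside 28.3% and 25.8% (54.2% in all). *Aspn* joined the 4 that rose on day 28 and the same pair fell, beside 24.1% and 19.2% (43.3% in all). Day 35 kept 4 rises and 2 falls, beside 16.9% and 13.1% (29.9% in all). On day 42, *Fmod* alone rose, and *Ogn* and *Omd* fell, beside 13.7% and 11.0% (24.7% in all). Since so many genes changed, these counts say less of the family than the values of each gene. The median log2FC of the 9 genes was -0.03 on day 7 and 0.02 on day 14. It was 0.24, 0.47 and 0.26 for days 21, 28 and 35, and 0.00 for day 42. Over all genes tested the median lay between 0.00 and 0.02 in these 6 comparisons.

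**Figure D1:**
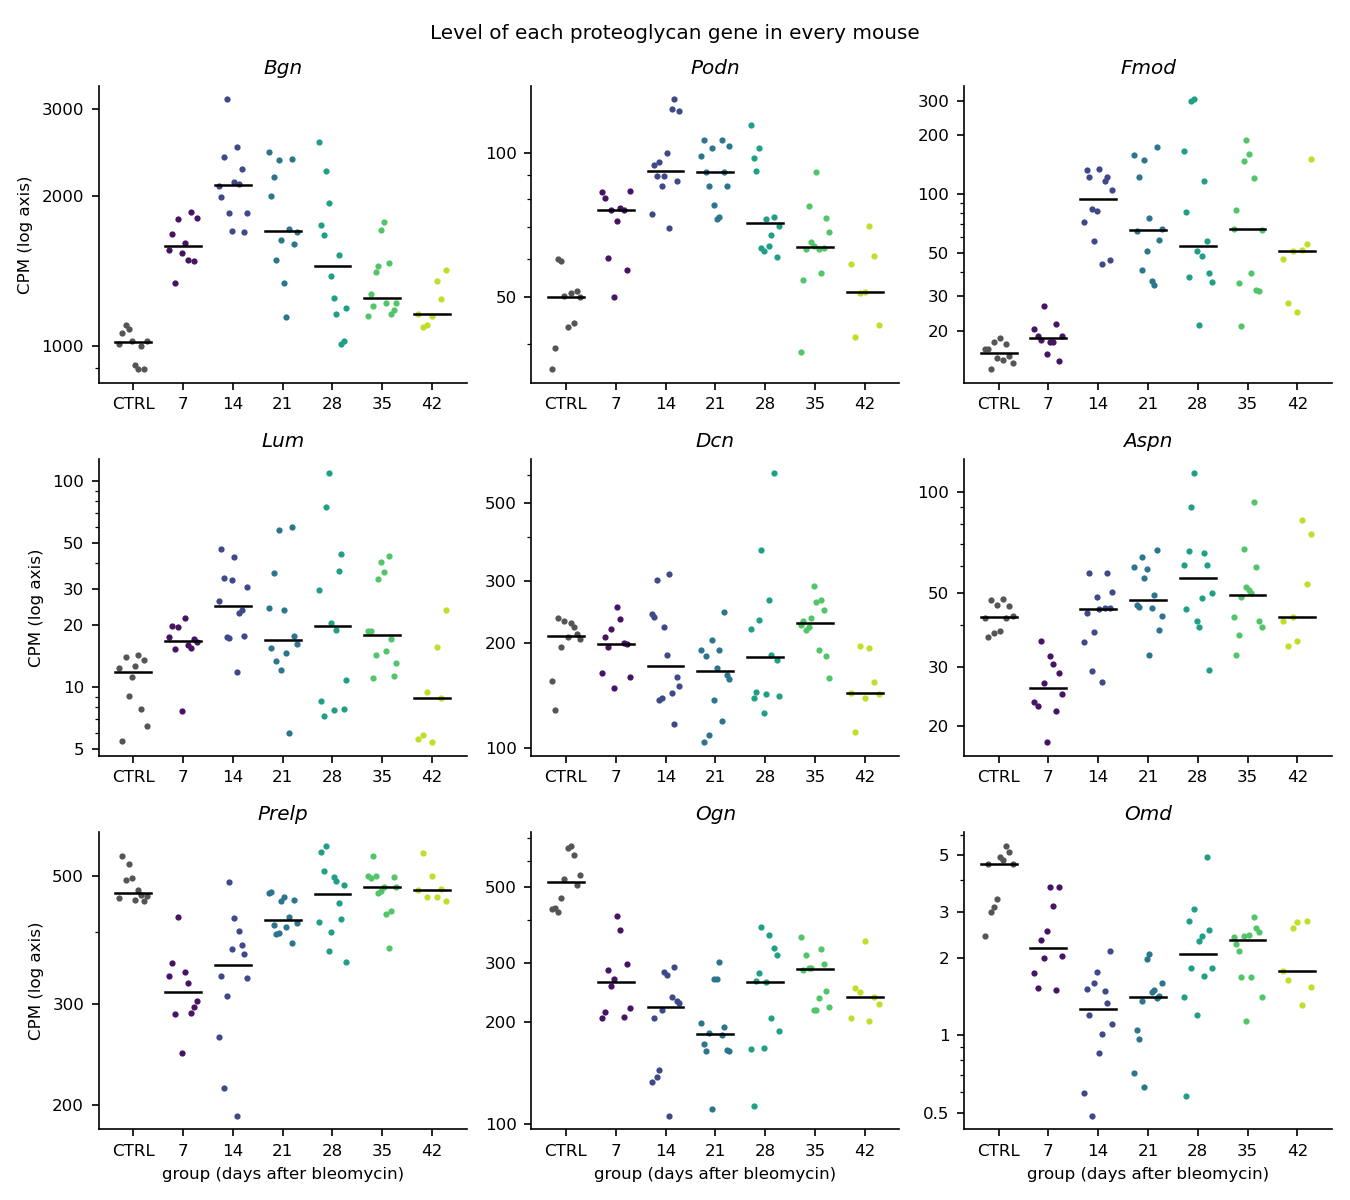
CPM on a log axis (y) for each of the 9 genes in every mouse (1 point per mouse) in the CTRL group and on the 6 BLEO days (x), with the group median as a line. All 12 *Fmod* points of day 14 sit above the highest CTRL point, and all 12 *Ogn* points sit below the lowest.

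*Bgn*, the close relative of *Dcn* in the first branch, rose early and most on day 14. It lay between 897 and 1100 CPM in CTRL mice (median 1020). Levels were 1340 to 1860 on day 7 (median 1580) and 1690 to 3130 on day 14 (median 2110). All mice of both days therefore exceeded all CTRL mice. Medians then came down through 1710, 1450 and 1250 on days 21, 28 and 35 to 1160 on day 42, when the mice spanned 1090 to 1420. The rise was 1.62-fold on day 7 (log2FC 0.69 ± 0.12 SE, adjusted p = 4.8e-06) and 2.15-fold on day 14 (1.10 ± 0.12, adjusted p = 4.17e-12). It still passed on day 35 (1.35-fold, adjusted p = 0.00319). On day 42 the difference of 0.28 did not pass (95% interval 0.02 to 0.54, adjusted p = 0.118), although 5 of 7 mice lay above every CTRL mouse. With only CTRL and day 42 fitted it passed (0.29, adjusted p = 0.00138).

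*Dcn* was not called on any day in the fit of all groups, though with only CTRL and day 42 fitted it passed on day 42 (-0.38, adjusted p = 0.0155). CTRL mice held 129 to 235 CPM (median 209), and the group medians of the BLEO days ran from 144 on day 42 to 227 on day 35. Every BLEO group overlapped CTRL. The largest difference was -0.39 on day 42 (95% interval -0.79 to 0.02, adjusted p = 0.163), so a fall of up to 0.79 on the log2 scale remained within the interval. On day 14 the interval was -0.39 to 0.30. On day 28 the mice spread from 126 to 609 CPM, and the highest was the library with muscle markers. The difference to CTRL was 0.18 with that mouse and -0.05 without it (adjusted p = 0.42 and 0.822). Over the 15 pairs of BLEO days *Dcn* was called in 1, day 35 above day 21 by 0.47 (adjusted p = 0.0434, a pair of days in which 18.3% of all genes changed).

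*Aspn* encodes a relative of decorin that lacks its glycosaminoglycan chain. It lay between 36.8 and 47.9 CPM in CTRL mice (median 42.4) and between 17.9 and 35.9 on day 7 (median 25.9), so the groups were separate. On day 14 the range was 27.1 to 57.2 (median 44.8), and on day 28 it was 29.5 to 114 (median 55.2), both overlapping CTRL. The fall on day 7 was 1.60-fold (log2FC -0.68 ± 0.17, adjusted p = 0.000761), and on day 14 the difference was 0.02 (95% interval -0.29 to 0.34). The rise on day 28 was 1.39-fold (adjusted p = 0.0141). That call rested on mouse 5, the highest of its day at 114 CPM: without it the difference was 0.35 and the adjusted p 0.0671. *Aspn* was thus the only one of the 9 to be called in opposite directions against CTRL on different days. From day 7 to day 14 it rose by 0.71 (adjusted p = 0.00174).

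*Fmod*, a collagen-binding member of the second branch, showed the largest rise of the family. CTRL mice lay between 12.7 and 18.4 CPM (median 15.4) and day 7 mice between 14.0 and 26.6 (median 18.3). These groups overlapped. On day 14 the mice held 44.1 to 134 CPM (median 94.5), above every CTRL and every day 7 mouse. From then on no BLEO mouse of any day reached down into the CTRL range. The log2FC of day 7 was 0.28 and did not pass (95% interval -0.49 to 1.05, adjusted p = 0.579), but did with only CTRL and day 7 fitted (adjusted p = 0.0188). That of day 14 was 2.59 ± 0.38 (6.02-fold, adjusted p = 3.09e-08), and those of days 28 and 42 were 2.76 (6.76-fold) and 1.91 (3.76-fold, adjusted p = 0.000363). *Fmod* was the only one of the 9 genes whose rise passed on day 42 in the fit of all groups.

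The spread of *Fmod* between mice was wider on the later days than in CTRL. The highest mouse exceeded the lowest 1.45-fold in CTRL, 3.03-fold on day 14 and 14.3-fold on day 28, when the values ran from 21.3 to 305 CPM (median 54.1). On day 42 6 of 7 mice lay between 24.9 and 55.6, and mouse 7 held 151. The difference between days 42 and 14 was -0.68 and did not pass (95% interval -1.45 to 0.09, adjusted p = 0.176), but without mouse 7 of day 42 it was -1.11 (adjusted p = 0.0301). That mouse therefore decided this comparison.

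*Lum*, the closest relative of *Fmod* and the neighbour of *Dcn*, lay in CTRL mice from 5.49 to 14.4 CPM (median 11.8). Values ran between 11.9 and 46.9 on day 14 (median 24.9) and between 7.22 and 110 on day 28 (median 19.8). On day 14, 11 of 12 mice lay above every CTRL mouse. On day 28, 7 of 12 did, with single mice standing high while others stayed in the CTRL range. No BLEO group was fully apart from CTRL. On day 7 the log2FC of 0.64 did not pass (95% interval -0.10 to 1.39, adjusted p = 0.157), although 9 of 10 mice lay above all CTRL mice. With only CTRL and day 7 fitted it passed (adjusted p = 0.00263). *Lum* rose 2.53-fold on day 14 (log2FC 1.34 ± 0.36, adjusted p = 0.00113) and 2.94-fold on day 28 (adjusted p = 0.000415). On day 42 it was back at a median of 8.83 CPM, with a difference of 0.00 to CTRL (95% interval -0.84 to 0.83).

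On day 28 the same mice led several genes. Mice 4 and 5 held the highest values of *Fmod* (299 and 305 CPM), *Lum* (75.3 and 110) and *Aspn* (89.8 and 114). Their summed myofibroblast markers, 3010 and 3130 CPM, were the third and the second highest of that day, while mouse 1, the highest at 3240, held 166 CPM of *Fmod* and 29.6 of *Lum*. Mouse 10, with the muscle markers, held 57.2 CPM of *Fmod* and was lowest in myofibroblast markers (1120). Of the cardiac markers, mouse 4 held 326 CPM, the 4th highest sum of that day, and mouse 5 held 65.9. These mice were picked from their values, so the coincidence is a description.

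*Prelp*, whose product binds collagen and heparan sulfate chains, fell early and came back. It was tightly held in CTRL mice at 452 to 541 CPM (median 467). On day 7 it lay between 247 and 424 (median 315), below every CTRL mouse, and on day 14 between 192 and 488 (median 351), with 11 of 12 mice below. By day 35 the range was 375 to 541 (median 478). The fall was 1.5-fold on day 7 (log2FC -0.59 ± 0.09, adjusted p = 4.83e-07) and 1.42-fold on day 14 (adjusted p = 1.8e-06). On day 21 the difference was -0.17 (95% interval -0.34 to 0.01, adjusted p = 0.103), and on day 42 it was 0.00 (-0.20 to 0.20). The step from day 14 to day 21 was the only change of the family called between these days (0.33, adjusted p = 0.0373, beside 1.03% of all genes, 0.45% rising), and it was lost when any of 11 single mice was left out (adjusted p up to 0.143). Over the longer span from day 14 to day 42, *Prelp* rose by 0.50 (adjusted p = 6.02e-05).

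*Omd*, best known from bone, had 6 to 58 counts per library, so its values carry more counting error than the others. CTRL mice lay between 2.43 and 5.44 CPM (median 4.62), day 14 mice between 0.487 and 2.13 (median 1.26), and day 42 mice between 1.31 and 2.78 (median 1.78). The day 14 and day 21 mice were all below the CTRL mice, and on the other days the groups overlapped. The fall was 1.70-fold on day 7 (adjusted p = 0.00279, but 0.0727 with mice 1 to 7 of each group alone), 3.28-fold on day 14 (log2FC -1.71 ± 0.22, adjusted p = 3.99e-10) and 2.01-fold on day 42 (adjusted p = 0.00169). Without the day 28 library with muscle markers, which held the highest value of that day (4.91 CPM), the difference on day 28 was -1.06 in place of -0.90, and it passed either way. From day 14 to day 42 *Omd* rose by 0.70 (adjusted p = 0.0212), a call lost without day 42 mouse 3, 4 or 6 (adjusted p 0.0514, 0.0599 and 0.0543).

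*Ogn*, a product of fibroblasts and of the vessel wall, fell on every day and did not come back. CTRL mice lay between 423 and 663 CPM (median 520). Day 7 mice held 206 to 413 (median 262), day 21 mice 111 to 301 (median 185) and day 42 mice 201 to 348 (median 237). On each of the 6 days every BLEO mouse lay below every CTRL mouse. The fall was 1.92-fold on day 7 (log2FC -0.94 ± 0.17, adjusted p = 3.98e-06), 2.66-fold on day 21 (-1.41 ± 0.16, adjusted p = 2.32e-11) and 2.15-fold on day 42 (-1.10 ± 0.19, adjusted p = 9.09e-06). Levels were higher on day 35 than on day 14 by 0.41 (adjusted p = 0.0252), while day 42 differed from day 14 by 0.24 (95% interval -0.10 to 0.58, adjusted p = 0.293).

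*Podn*, a more distant member described in kidney and vessel wall, had a course close to that of *Bgn*. It lay between 35.4 and 60 CPM in CTRL mice (median 50.2), between 69.7 and 129 on day 14 (median 91.8) and between 41.3 and 70.4 on day 42 (median 51.3). On days 14, 21 and 28 no BLEO mouse overlapped CTRL, although on day 28 the lowest held 60.7. The rise was 1.47-fold on day 7 (adjusted p = 7.88e-05) and 1.99-fold on day 14 (log2FC 0.99 ± 0.11, adjusted p = 2.22e-11). By day 42 the difference of 0.15 did not pass (95% interval -0.10 to 0.41, adjusted p = 0.412). *Podn* overlaps *Scp2* and 2 small RNA genes without sharing exon sequence.

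BLEO and CTRL mice were fully apart for 4 of the 9 genes on day 7, beside 11.2% of all genes tested. On day 14 this held for 5 (15.6% of all genes), on day 21 for 5 (11.7%) and on day 28 for 3 (3.44%). Days 35 and 42 left 3 (3.77%) and 2 genes (7.58%). *Fmod* and *Ogn*, which moved in opposite directions, made up the pair left on day 42.

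**Figure D2:**
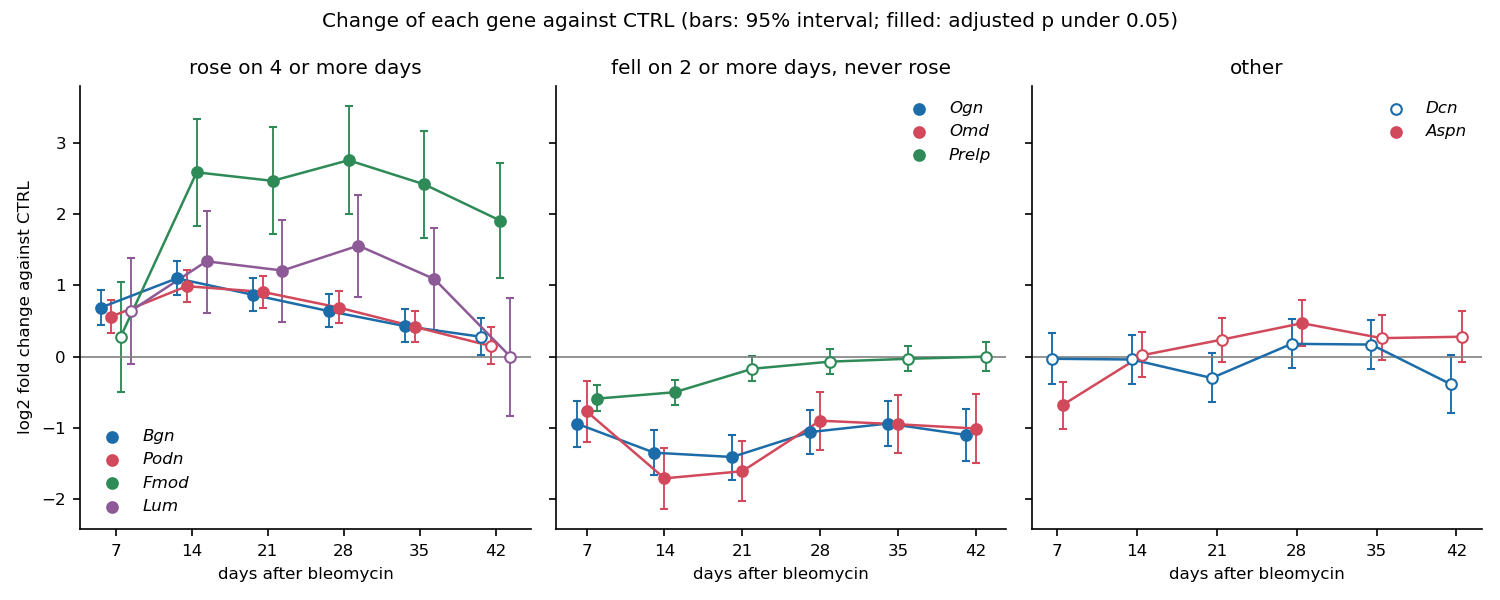
Log2 fold change against CTRL (y) on each BLEO day (x) for the genes that rose on 4 or more days, those that fell on 2 or more days without rising, and the other 2; bars are 95% intervals, and filled points have an adjusted p under 0.05. *Bgn* and *Podn* run on top of each other with a peak on day 14, *Fmod* stays at 1.91 or more from day 14 on, and *Ogn* and *Omd* stay at -0.77 or below.

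Between consecutive BLEO days, most change fell between days 7 and 14. There *Bgn* (0.41), *Fmod* (2.31, 4.95-fold), *Aspn* (0.71) and *Podn* (0.43) rose and *Omd* fell by 0.94, which made 5 of 9 genes beside 17.0% of all genes tested (9.48% rose, 7.55% fell). The *Podn* call was lost with mice 1 to 7 of each group alone (0.32, adjusted p = 0.132). *Fmod* alone was fully apart between these groups, which held for 0.401% of all genes. No member was called from day 28 against day 21, where 0.727% of all genes were, although 5 had an unadjusted p under 0.05. The counts were likewise 0 for day 35 against 28 (1.27% of all genes, 1 member unadjusted) and day 42 against 35 (0.0%, 3 members unadjusted), and DESeq2 gave 0 in each of these 3 steps. Over the span from day 14 to day 42, *Bgn* (-0.82, adjusted p = 2.8e-06), *Lum* (-1.34, adjusted p = 0.00881) and *Podn* (-0.84, adjusted p = 6.53e-07) fell while *Prelp* and *Omd* rose, beside 34% of all genes (18.8% fell, 15.2% rose). All 7 day 42 mice lay below all day 14 mice for *Bgn*, which was so for 3.72% of genes in that comparison.

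When the 7 group means of each gene were put in order, few neighbours in the order differed. For *Bgn*, *Dcn*, *Lum* and *Podn* no pair of neighbouring means differed beyond the spread, although the ends of the *Bgn*, *Lum* and *Podn* orders did. *Fmod* split into CTRL and day 7 below and the other 5 groups above (day 42 above day 7 by 1.63, adjusted p = 0.00272). *Ogn* split below CTRL (day 35, the next highest group, was lower by 0.94, adjusted p = 3.47e-06), and *Omd* likewise (day 7 was next, lower by 0.77, adjusted p = 0.00279). *Aspn* split above day 7 (CTRL higher by 0.68), and *Prelp* between day 21 and day 14.

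Counts grow with transcript length, so levels of different genes were compared per kilobase of exon. In CTRL mice *Ogn* made up 35.7% of the summed level of the 9 genes per kilobase, *Bgn* 28.4%, *Prelp* 23% and *Dcn* 5.97%, while *Lum*, *Fmod* and *Omd* made up under 1% each. By day 14 *Bgn* made up 54.9%, *Prelp* 14.7%, *Ogn* 12.6% and *Fmod* 4.4%. By all exons the summed level itself was 578 CPM per kilobase in CTRL, 641 on day 14 and 512 on day 42. By the longest coding transcript it was 912, 1260 and 882. On day 7 the sum lay below CTRL by all exons (536) but above it by that transcript (1020). On day 42 *Bgn* still led with 38.9%, ahead of *Prelp* (26%) and *Ogn* (18.7%). The length used matters here: with the longest coding transcript in place of all exons, *Bgn* already led in CTRL with 45.3% and reached 70.2% on day 14, and *Dcn* made up 12.6% in CTRL. These shares and sums are levels of RNA and were not tested.

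**Figure D3:**
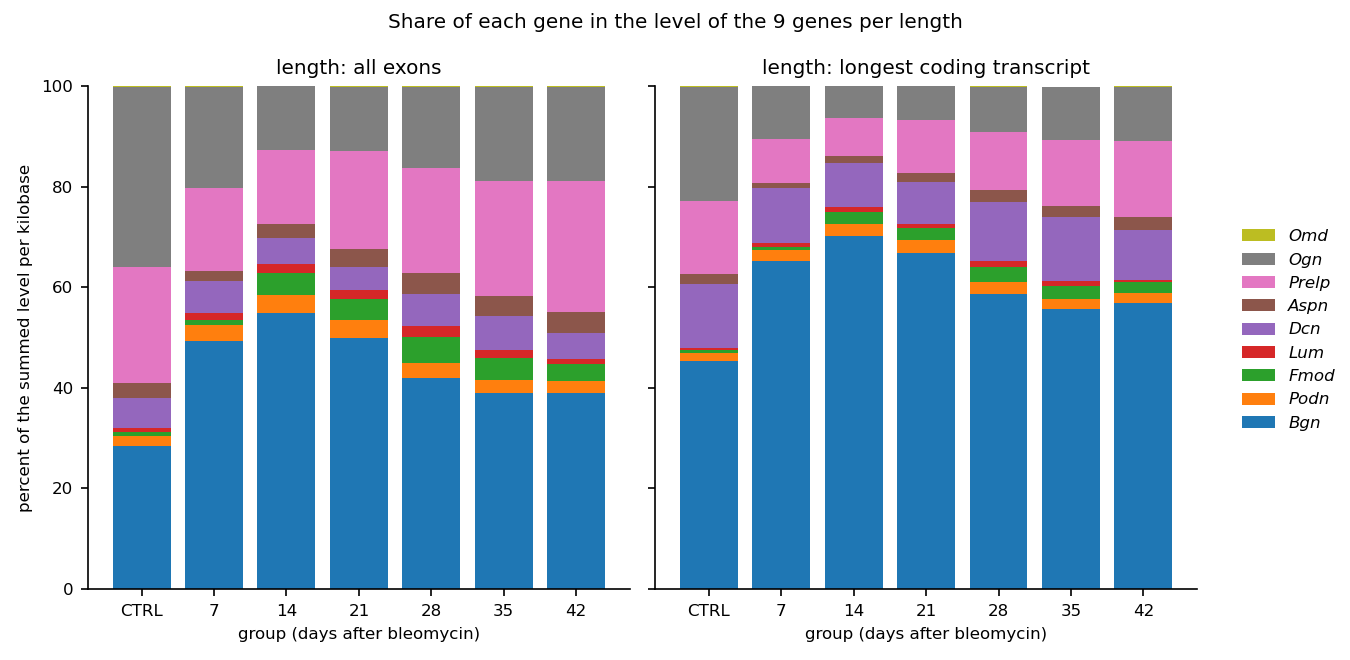
Share of each gene (y, percent of the summed level per kilobase of the 9 genes, from group means) in each group (x), with all exons or the longest coding transcript as the length. The *Bgn* share is 28.4% in CTRL and 54.9% on day 14 by all exons, and 45.3% and 70.2% by the longest transcript, while the *Ogn* share is 35.7% and 12.6% by all exons.

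Ratios of 2 genes within a mouse do not depend on the scaling of libraries, and 7 of them were tested by two-sided permutation (exact where day 42 entered, 100000 resamples otherwise, adjusted over the 49 tests). Of *Bgn* and *Dcn*, the log2 ratio of counts averaged 2.33 ± 0.32 (SD, n = 10) in CTRL and 3.51 ± 0.52 (n = 12) on day 14, a 2.26-fold shift toward *Bgn* (adjusted permutation p = 8.17e-05). It was still shifted on day 42 by 0.67 (adjusted exact p = 0.00228). On day 28 the shift was 0.55 (adjusted permutation p = 0.0757) with the library that held muscle markers and 0.74 (0.00187) without it. *Aspn* against *Dcn* behaved alike on that day, with 0.35 (adjusted permutation p = 0.119) and 0.48 (0.00772).

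Ratios were also tested for 2 pairs of genes from the same cluster. *Lum* gained on *Dcn*, its neighbour, by 1.39 on day 14 (2.62-fold, adjusted permutation p = 0.000256), and *Ogn* lost against *Aspn*, which lies on the far side of *Omd*, by 1.39 on day 14 and 1.65 on day 21 (2.62- and 3.15-fold, adjusted permutation p = 0.000103 and 8.17e-05). On days 14, 21 and 35 the *Ogn* to *Aspn* ratio of every BLEO mouse was below that of every CTRL mouse. The collagen-binding pair shifted too: *Fmod* gained on *Lum* by 1.2 on day 14 and by 1.83 on day 42 (3.54-fold, adjusted exact p = 0.000229), when the groups were apart.

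Set against *Col1a1*, which encodes the main chain of the fibrils these proteins decorate, both proteoglycans lost ground. *Col1a1* itself rose on days 7 to 35, while *Dcn* was not called on day 14 (log2FC -0.04, edgeR adjusted p = 0.844). The log2 ratio of *Dcn* to *Col1a1* averaged -0.70 ± 0.47 (SD, n = 10) in CTRL and -3.58 ± 0.59 (n = 12) on day 14, 7.36-fold lower (adjusted permutation p = 8.17e-05). It was 2.12-fold lower on day 42, when the 7 mice lay between -2.41 and -1.37 and the lowest CTRL mouse at -1.36. The ratio of *Bgn* to *Col1a1* fell 3.25-fold on day 14 and 1.33-fold on day 42 (adjusted exact p = 0.0109), although *Bgn* itself rose on days 7 to 35. Both ratios were lower than in CTRL on all 6 days, and of the 49 tests 40 passed.

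**Figure D4:**
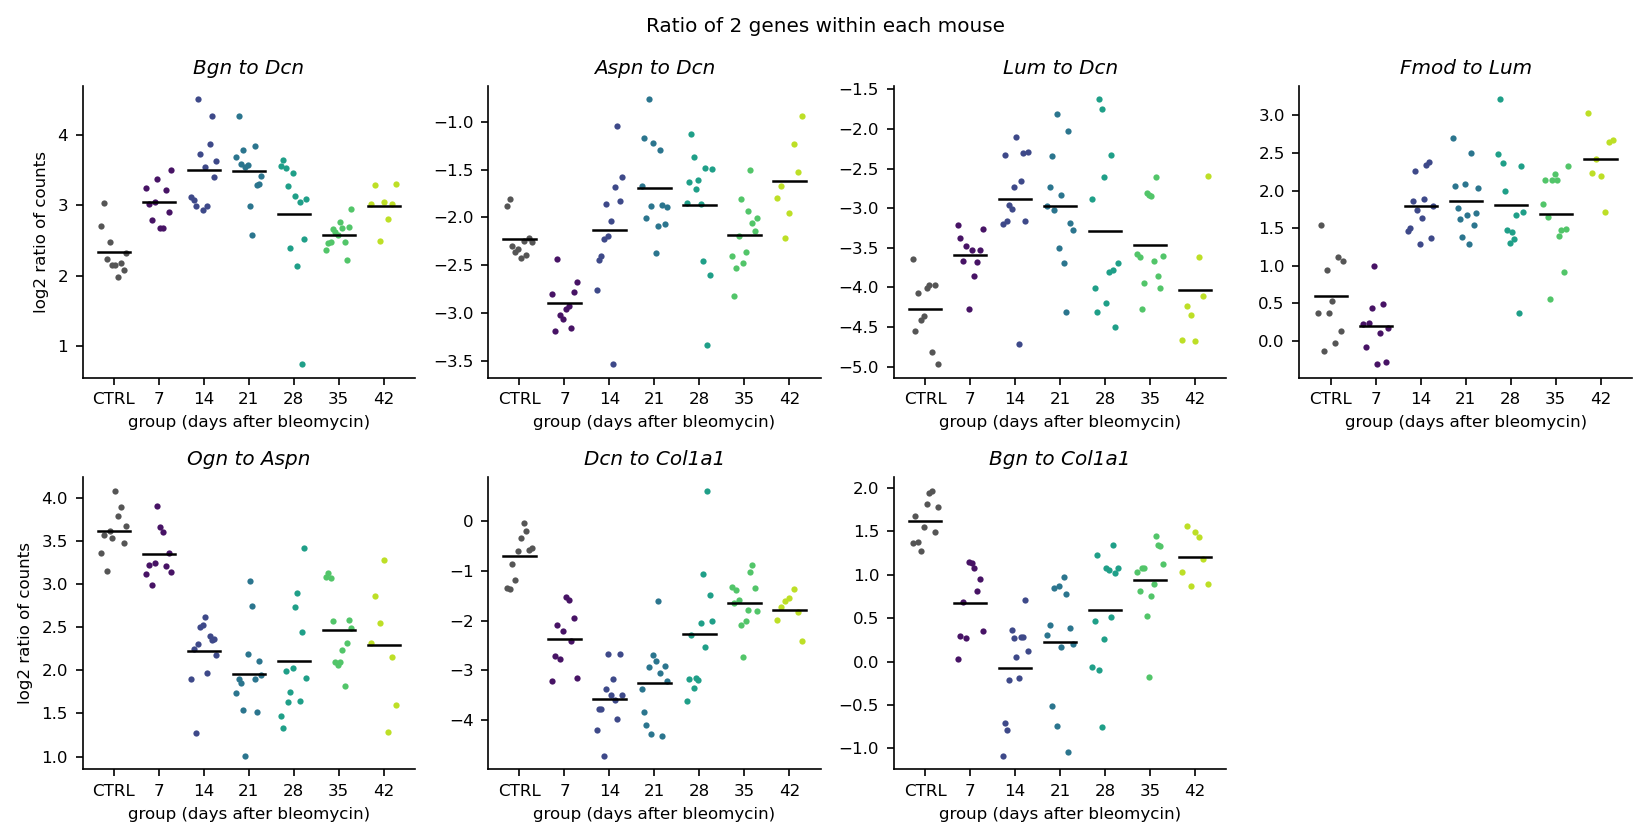
Log2 ratio of the counts of 2 genes (y) in each mouse (points) by group (x), with the group mean as a line; each panel has its own y axis. The single low *Bgn* to *Dcn* point on day 28, at 0.73, is the library with muscle markers, and the *Dcn* to *Col1a1* points fall from a CTRL mean of -0.70 to a day 14 mean of -3.58.

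Within the family, the 6 log2FC values against CTRL were closest for *Bgn* and *Podn* (root mean square difference 0.09) and for *Ogn* and *Omd* (0.20), and farthest apart for *Fmod* and *Omd* (3.40). Adjacent genes were among the nearest and the farther pairs alike: *Omd* and *Ogn*, the second nearest, are neighbours, while the neighbours *Dcn* and *Lum* differed by 1.12, *Aspn* and *Omd* by 1.38 and *Prelp* and *Fmod* by 2.41. Among 13815 genes with a mean log2 CPM above 1, those nearest to *Bgn* were *Fzd1*, *Ada* and *B4galt2* (0.05 to 0.06), and those nearest to *Podn* were *Olfml2b*, *Wnt5a* and *B4galt2* (0.07 each). Matches of *Fmod* lay farther off, with *H2-M2* (0.29), *Rgs5* (0.40) and *Pianp* (0.48) nearest, but its own log2FC had an SE of 0.38 on day 14. Nearest to *Lum* were *Igdcc4*, *Hspb7* and *Plppr3* (0.21 to 0.31). *Ogn* was nearest to *Lmntd1*, *Gpr155* and *Lrrn3* (0.10 to 0.13), and *Omd* to *Igfbp6*, *Lmntd1* and *Slc16a11* (0.13 to 0.17). *Prelp* was nearest to *C030015A19Rik*, *Ogt* and *Ypel3* (0.04 to 0.05), *Aspn* to *Sox17*, *Tnfrsf25* and *St6galnac3* (0.12 to 0.14), and *Dcn* to *Tespa1*, *Sh2d2a* and *Ubash3a* (0.11 to 0.12). The measure compares means of groups that share the CTRL mice and describes likeness of the course alone.

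Markers of fibroblast states moved over the same days, while 32.4% of all genes tested rose and 29.9% fell on day 14, and 13.7% and 11.0% on day 42. All 8 myofibroblast markers rose on day 14 and 2 of 8 on day 42, and their summed level ranged from 1060 to 1290 CPM in CTRL, 1870 to 3540 on day 14 and 1240 to 2060 on day 42. Of the 8 alveolar fibroblast markers, 7 fell on days 7, 14, 21 and 28 and 6 on days 35 and 42. The other marker of day 14, *Pdgfra*, rose on that day. The 8 markers summed to 5140 to 6000 CPM in CTRL, 2070 to 3470 on day 14 and 2850 to 4800 on day 42. Adventitial fibroblast markers without *Dcn* summed to 916 to 1090 CPM in CTRL and 1140 to 1500 on day 14, but went both ways: *Mfap5*, *Cd34*, *Ly6a* and *Dpt* rose on day 14, and *Clec3b* and *Pi16* fell. Of 6 smooth muscle markers, 2 rose and 4 fell on day 14 and 4 fell on days 21, 28 and 42, with sums of 454 to 611 CPM in CTRL and 317 to 623 on day 14. Macrophage markers rose, 5 of 6 on day 14, from 342 to 814 CPM in CTRL to 774 to 2260. Endothelial markers fell, 5 of 6 on days 14 to 35, with sums of 2780 to 3700 CPM in CTRL and 1560 to 2920 on day 14. Lung epithelial markers moved as well: 6 of 8 fell on day 14, and their sum lay between 39500 and 50400 CPM in CTRL and between 8470 and 37000 on day 14. No marker of these 7 lists had a median of 0 counts over all libraries. Their part in the rise of *Bgn*, *Podn*, *Fmod* and *Lum* and in the fall of *Ogn* and *Omd* was not tested.

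Around the family, the genes of its binding partners and processing enzymes were described by lists. Of 12 collagen genes that form or accompany fibrils, 11 rose on each of days 14, 21 and 28, 9 rose on days 7 and 35, 4 rose on day 42 and none fell, with a median log2FC of 2.39 on day 14 (0.01 over all genes tested). The share of all genes tested that rose ran from 13.7% on day 42 to 32.4% on day 14. *Col11a1* rose most on day 14 (log2FC 5.89 ± 1.15 SE), ahead of *Col5a3* (3.39 ± 0.42), and *Col14a1* was the one not called (0.03, adjusted p = 0.834). Mean *Col11a1* went from 0.127 ± 0.124 SD to 8.16 ± 7.14 SD CPM, so its rise began at very low counts. All 3 TGF-beta ligands, which decorin, biglycan and fibromodulin can bind, rose on days 7 to 28, on day 14 by 1.06 (*Tgfb3*), 0.73 (*Tgfb2*) and 0.53 (*Tgfb1*). Of 11 proteases that process or degrade the family, 7 rose on day 14 and only *Gzmb* fell (-0.86), where 32.4% of all genes tested rose and 29.9% fell. *Mmp12* (5.09 ± 0.44) and *Adamts4* (5.06 ± 0.61), an aggrecanase, rose most, and *Bmp1*, which trims the propeptide of biglycan, rose by 1.06.

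Of 21 genes that build the linker and the chondroitin or dermatan sulfate chains carried by decorin and biglycan, 2 rose and 2 fell on day 7, where 45.8% of all genes were called. On day 14, 9 rose and 4 fell, a share like the 62.4% of all genes. The largest rises on day 14 were those of *Chsy3*, a chondroitin polymerase (2.11 ± 0.22), and *Xylt1*, which attaches the first sugar to the core protein (0.83 ± 0.14). *Chst3* (-0.89 ± 0.15) and *Chst7* (-0.54 ± 0.13), both sulfotransferases, fell most. *Dse*, the epimerase that turns chondroitin into dermatan sulfate, rose by 0.77. The list median was 0.12 on day 14, with 0.01 over all genes. Of 8 genes for keratan sulfate chains, as on lumican and fibromodulin, 3 rose and 3 fell on day 14, where 32.4% of all genes rose and 29.9% fell. They ran from *B3gnt7* (1.24 ± 0.17) and *B4galt1* (0.63 ± 0.10) to *B4galt4* (-0.47 ± 0.09) and *Chst4* (-0.83 ± 0.23).

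**Figure D5:**
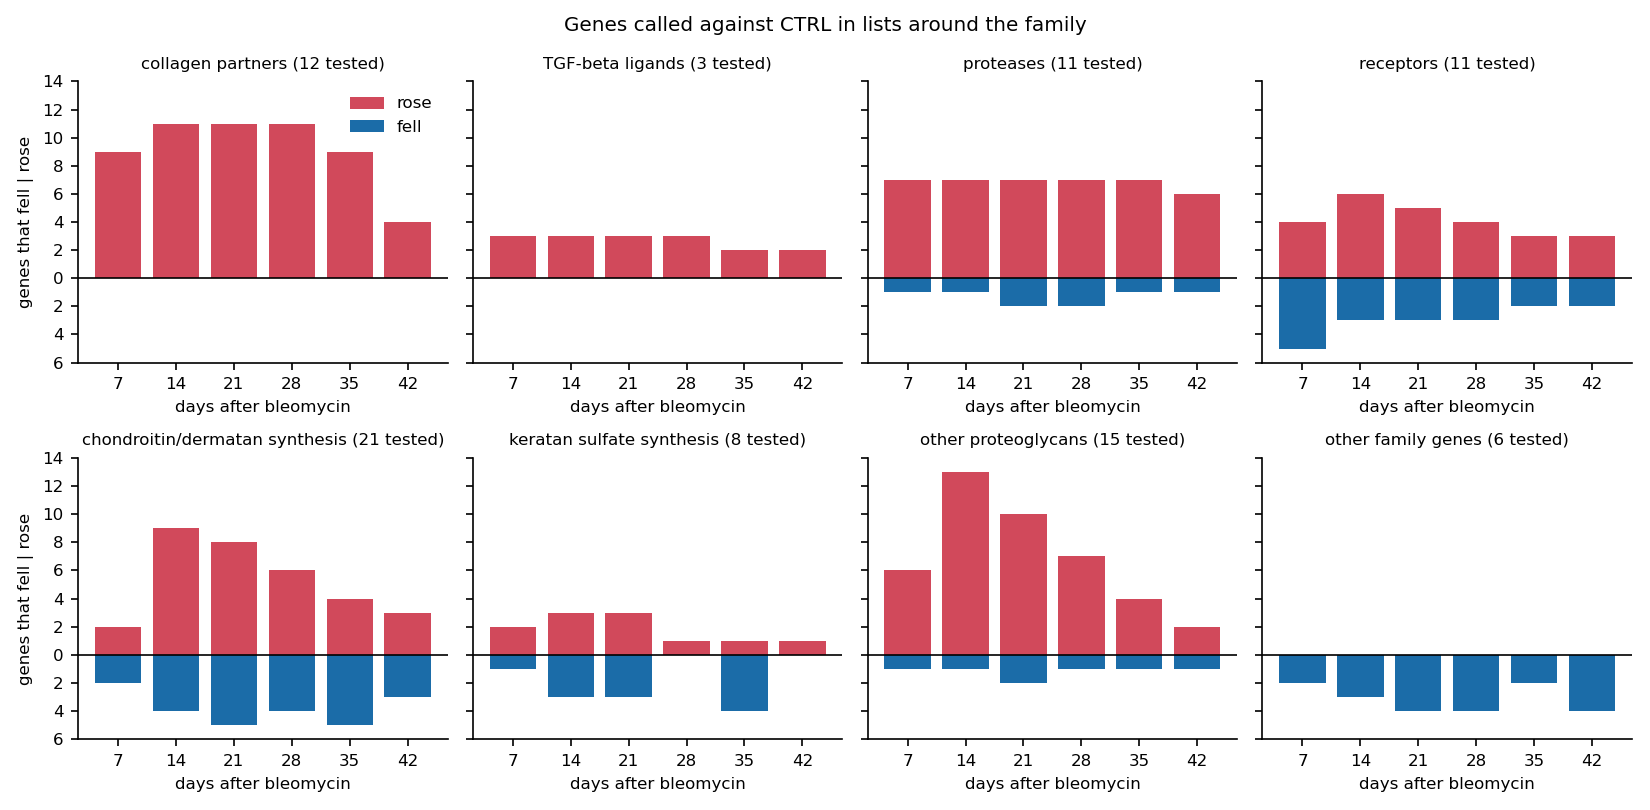
Number of genes that rose (above 0) or fell (below 0) against CTRL (y) on each BLEO day (x) in 8 lists of genes related to the family, with the number tested in each title. Collagen partners rose without a fall, 11 of 12 on day 14, and of the 6 tested family relatives none rose and 2 to 4 fell on any day.

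Of 9 further genes of the leucine-rich repeat proteoglycan families, *Kera*, *Epyc* and *Nepn* had at most 9 counts in any library and were not tested. None of the other 6 rose on any day, where 13.7% (day 42) to 32.4% (day 14) of all genes tested did, and on day 14 29.9% of all genes fell. On day 14 *Chad*, which encodes chondroadherin, fell by 2.09 (from 15 ± 3.69 SD to 3.47 ± 2.93 SD CPM, adjusted p = 7.5e-07), *Ecm2*, which like *Aspn* lies on chromosome 13, by 1.32 (adjusted p = 1.14e-12) and *Nyx* by 0.91 (adjusted p = 0.000253). *Optc*, *Tsku* and *Podnl1* did not pass that day (-0.62, 0.20 and 0.07).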

How the data were processed

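The authors extracted RNA from the inferior lobe, prepared stranded libraries and sequenced them single-end. Per the study's methods and the submitters' processing notes, reads were aligned with STAR 2.7.0f to GRCm38 (Ensembl release 96), and the deposited values are raw counts per gene. The counting program is not given in the sources used here, so overlapping antisense genes are uncertain. Columns were matched to mice by library name.

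Counts were analysed with edgeR 4.0.16 in R 4.3.3 (TMM factors, filterByExpr, quasi-likelihood F test, 1 mean per group, all 75 mice), with Benjamini-Hochberg adjustment over 16221 genes. The edgeR p-values set each difference against the spread between mice within groups. That spread was estimated for each gene over all groups together, so a comparison of 2 groups also carries the spread of the others. CPM are counts scaled by the TMM factors. Log ratios used a prior count of 0.5. Two-sided permutation tests of ratios within mice were adjusted over 49 tests. Likeness was measured over genes with a mean log2 CPM above 1. Lengths came from GENCODE M21. The test was checked on simulated data. DESeq2 1.42.0, 2 other scalings, no filter, fits of 2 groups, a block, mice 1 to 7 and a fold threshold of 0.5 (log2) were tried, and each mouse was left out in turn.

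All members are named. From each list, the 2 largest rises and the 2 largest falls called on day 14 are named, with genes of known role or in counts of 5 or fewer. The members and lists were chosen with earlier results of these data known.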

Additional observations from a re-analysis of the deposited data

Results flagged for a closer look

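The 9 genes in the 3 groups of 7 to 10 mice (CTRL, day 7 and day 42) gave 27 sets of values. Of these, 3 held a mouse far from the others, where chance gives about 1 in 20 sets. The sets share mice, so they are not independent, and the groups of 12 mice were not examined. *Lum* on day 7 had its lowest mouse at 7.65 CPM, with the next at 15.3. *Fmod* on day 42 had its highest mouse at 151 CPM, with the next at 55.6. *Ogn* on day 42 had its highest mouse at 348 CPM, with the next at 253, still below every CTRL mouse.

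The difference to CTRL changed between days, by the tested difference between the 2 days themselves (edgeR quasi-likelihood F test), in 11 cases among 3 pairs of days (14 against 7, 21 against 14 and 42 against 14); the steps from day 21 on gave none, and the other pairs were not listed. From day 7 to day 14 it moved by 0.41 for *Bgn*, 2.31 for *Fmod*, 0.71 for *Aspn*, -0.94 for *Omd* and 0.43 for *Podn* on the log2 scale. From day 14 to day 21 it moved by 0.33 for *Prelp*. From day 14 to day 42 it moved by -0.82 for *Bgn*, -1.34 for *Lum*, 0.50 for *Prelp*, 0.70 for *Omd* and -0.84 for *Podn*.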

How the results depend on the processing

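Over the other tests, scalings, filters and choices of mice, 743 log2FC values of the members kept their direction and side of the threshold, 7 gained a call, 6 lost it and 0 called values changed sign. The number of members called on day 42 against CTRL was 5 in place of 3 with only the 2 groups compared, where *Dcn* (-0.38, adjusted p = 0.0155) and *Bgn* (0.29, adjusted p = 0.00138) passed. That setting takes the spread from the compared mice alone, while the main fit shares it over all groups. For *Fmod* the SD was 11.8% of the mean in CTRL, 18.9% on day 7 and 95.9% on day 28. Fits of 2 groups also gave a call to *Lum* (adjusted p = 0.00263) and *Fmod* (0.0188) on day 7, to *Prelp* (0.00515) and *Aspn* (0.0408) on day 21 and to *Lum* from day 7 to day 14 (0.0231). Mice 1 to 7 ended the calls of *Omd* on day 7 (0.0727), *Lum* on day 35 (0.0671) and *Podn* from day 7 to day 14 (0.132). A log2FC of at least 0.5 left 3 of 5 members from day 7 to day 14. From day 14 to day 21 the count was 0 in place of 1 with no filter, mice 1 to 7, only the 2 groups, or that fold threshold. With each mouse left out, chosen after seeing the data, counts ranged over 6 to 7 (day 28 against CTRL), 5 to 6 (day 14 against 7), 0 to 1 (day 21 against 14), 0 to 1 (day 28 against 21, from *Omd*) and 4 to 6 (day 42 against 14) and did not move elsewhere. With mice 1 to 7, 3 ratio tests gained and 2 lost their call, all of ratios to *Dcn* (*Bgn* to *Dcn* was 0.90 on day 28 and 0.17 on day 35). Of the list counts 344 stayed within 1.5 times and 40 did not. With only the 2 groups compared, 9 chondroitin or dermatan sulfate genes (day 7) and 7 large proteoglycans (day 42) were called. With mice 1 to 7, 2 collagen genes (day 42) and 1 TGF-beta ligand (day 7) were. The mouse numbers gave no sign of pairing the samples. Deviations from the group means had a median correlation of 0.00574 over 204 same-numbered pairs, 63 of them above 0.1. Over the other pairs the median was 0.00183. The best match in another group carried the same number for 7 of 75 mice. The replicate block gave the same counts of members called, 7 on day 14. Low counts limit *Omd* most.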

Other observations

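Receptors reported for soluble members of the family changed in both directions. Of 11 tested, 6 rose and 3 fell on day 14, beside 32.4% and 29.9% of all genes tested. The largest changes were those of *Tlr2* (1.23 ± 0.18 on the log2 scale) and *Lrp1* (0.92 ± 0.16) upward and of *Met* (-1.01 ± 0.14) and *Kdr* (-0.97 ± 0.16) downward. Of 15 large or cell surface proteoglycans tested, 13 rose on day 14 and 2 on day 42, beside 32.4% and 13.7% of all genes tested. *Prg4*, which encodes lubricin, rose most on day 14 (3.05 ± 0.58), followed by *Vcan*, a large proteoglycan of provisional matrix (2.04 ± 0.25), and *Sdc2* was the one that fell (-0.26 ± 0.06).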
